A study of Homo sapiens with 14 samples.

Results

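HEK-rich and Jurkat-rich cell mixtures were compared with each other, with no pure library in the contrast. The HEK-rich group holds Mixtures 3 and 4, made with 80% HEK cells, and Mixtures 5 and 6, made with 60%. The Jurkat-rich group holds Mixtures 9 and 10, with 40% HEK cells, and Mixtures 11 and 12, with 20%. The libraries were chosen by their labelled mixing percentage, not by a measured value, and make up 8 of the 14 libraries of the series, 4 in each group. The question is which genes of each line can be told from mixtures alone.

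The study mixed HEK-293T, an adherent human embryonic kidney line kept in DMEM, with Jurkat, a T leukemia line cultured in suspension in RPMI. Harvest followed a set time after passage, and every mixture held the same total number of cells. Oligo-dT beads captured the mRNA, ERCC spike-ins (synthetic RNAs counted beside the genes) went into the captured mRNA, and barcoded cDNA was pooled by a qPCR of Actb. The libraries of one mixing level are described as technical replicates, so no p-value below covers the spread between cultures. Each group pools 2 mixing levels, and the spread inside a group therefore holds the difference between its levels beside that between technical libraries. Cell numbers were set by the mixing, but from the counts of a gene in these mixtures alone, fewer cells of a line and less RNA per cell cannot be told apart.

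A T cell carries an antigen receptor whose chains sit in a complex with the CD3 proteins, and kinases and adaptors pass the signal inward from there. T cells and T cell leukemias also carry leukocyte surface proteins such as CD45, and transcription factors of the T lineage such as TCF7 and BCL11B. HEK-293T cells instead attach to a surface and are known for keratins, cadherins, matrix genes and neurofilaments.

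The gene counts in the HEK-rich group were 15167187 in Mixture 3, 14672205 in Mixture 4, 11644263 in Mixture 5 and 12937476 in Mixture 6. In the Jurkat-rich group they were 12946443 in Mixture 9, 9675274 in Mixture 10, 18848017 in Mixture 11 and 14063722 in Mixture 12. The ranges of depth overlap, and a limit of 3 counts was worth from 0.159 to 0.310 CPM, the gene counts scaled to one common library total. Such limits describe counting error and not the copies made by PCR. Gene counts per spike-in count were 46.6, 123, 29.9 and 56.1 in Mixtures 3 to 6, and 44.8, 34.3, 17.4 and 28.0 in Mixtures 9 to 12. The groups overlap in this ratio, with Mixture 4 far above the rest and Mixture 11 lowest. The means were 64.0 ± 41.0 (SD, n = 4) and 31.1 ± 11.5 (SD, n = 4), and the mean log2 ratio was higher by 0.92 in the HEK-rich group, with p = 0.114 in an exact two-sided permutation test whose smallest p is 0.0286. Without Mixture 4 the log2 difference was 0.54 (exact p = 0.2), without Mixture 5 it was 1.22 (exact p = 0.0571), and over each of the 8 libraries left out in turn it ran from 0.54 to 1.22.

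The deposited file names also carry a digit whose meaning is not stated, and it partly follows the mixing. Mixtures 3, 4 and 5 carry a 2, and Mixture 6 and all Jurkat-rich libraries carry a 1. Values within the digit therefore compare Mixture 6 alone with the 4 Jurkat-rich libraries, and the digit 2 holds no Jurkat-rich library. In that comparison the spike-in ratio was higher by 0.93 in Mixture 6, where the exact test cannot go below p = 0.2 and gave 0.4. A fit of the digit itself, over libraries that share a mixing level, called 0 of 18500 genes (0%) with edgeR, while 242 were higher and 890 lower with the digit 2 at an unadjusted p under 0.05. With the size factors of DESeq2 in edgeR it again called 0 genes. With the pair at 60% HEK alone the count was 0 (457 at an unadjusted p under 0.05), and with the pair at 50% HEK alone it was 1 (2559 unadjusted). In each pair a digit is a single library, so the spread in those fits comes from the other mixing levels, and digit and library cannot be told apart.

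Of 90 tested genes from lists of the T lineage and of leukocytes, 45 were called higher in the Jurkat-rich mixtures and 0 in the HEK-rich ones. Of all 16730 genes tested, 301 were higher in the Jurkat-rich group (1.8%) and 6 were higher in the HEK-rich group (0.0359%), by the quasi-likelihood test of edgeR at a Benjamini-Hochberg adjusted p under 0.05. At an unadjusted p under 0.05 the numbers were 1690 and 698. With a term for each of the 4 mixing levels edgeR called 735 and 48 genes, and with a line on the Jurkat percentage over the 10 mixed libraries 876 and 91. In all that follows, a log2 difference is Jurkat-rich over HEK-rich. The 301 genes had a median log2 difference of 2.03, with a range from 0.68 to 3.37, beside a median of 0.00 over all genes tested. A difference of at least 2-fold was held by 277 of them, 241 were protein coding and 36 were long noncoding RNAs. CPM of the groups did not overlap for 299 of the 301, against 8.19% of all genes tested. Mean CPM followed the order 80%, 60%, 40% and 20% HEK for 268, against 7.63% of all genes tested, and nothing is read from either share because the test chose these genes. In 2 of the 301 genes every HEK-rich library held at most 3 counts.

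The calls depended on single libraries. The median adjusted p of the 301 genes was 0.0338 in edgeR. Without Mixture 3, 4, 5 or 12, edgeR called 1 gene higher in the Jurkat-rich group, and without Mixture 11 it called 2. Without Mixture 6 it called 70, without Mixture 9 it called 418 and without Mixture 10 it called 576. The numbers higher in the HEK-rich group were 0 without Mixture 3, 4, 5, 11 or 12, 2 without Mixture 6, 25 without Mixture 9 and 42 without Mixture 10. At an unadjusted p under 0.05, from 1359 to 2245 genes were higher in the Jurkat-rich group in these edgeR fits and from 357 to 1167 in the HEK-rich group. DESeq2 called 775 and 85 with all 8 libraries. With the digit of the file name as a term, edgeR called 0 genes in either direction (653 and 303 at an unadjusted p under 0.05), and the 301 genes had a median log2 difference of 1.60. Within the digit 1 it also called 0 in either direction (645 and 225 unadjusted), their median was 1.59, and 224 of the 301 had an unadjusted p under 0.05. In that comparison the lone HEK-rich library is assumed to vary like the others.

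Scaling by spike-ins moved the median of all genes by -1.11 log2. Under it edgeR called 2 genes higher in the Jurkat-rich and 54 higher in the HEK-rich group. The 301 genes had a median of 0.92 on that scale, which is 2.04 above the median of all genes. Of them, 265 kept their direction, 63 kept it at an unadjusted p under 0.05 in edgeR, and 0 were called.

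**Figure D1:**
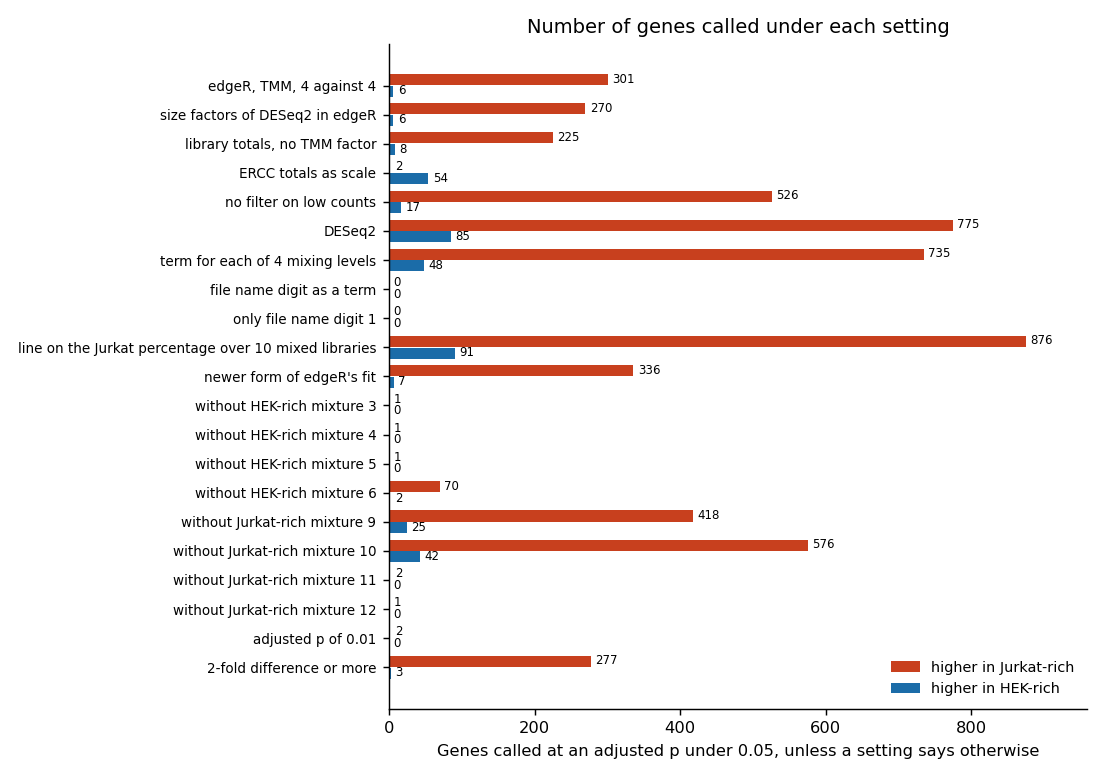
Number of genes called in each direction by the edgeR and DESeq2 fits described in the text, by setting and by library left out. With all 8 libraries edgeR called 301 and 6 genes, and without Mixture 10 it called 576 and 42.

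**Figure D2:**
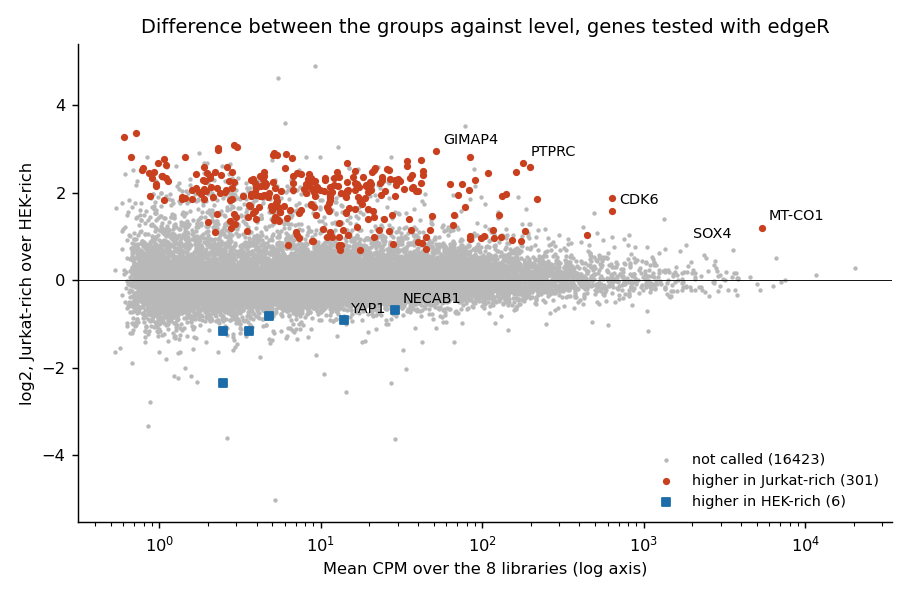
Log2 difference of Jurkat-rich over HEK-rich mixtures against mean CPM over the 8 libraries (log axis) for the 16730 genes tested, with called genes in color. The called genes of the Jurkat-rich group lie between 0.68 and 3.37.

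The rule for named genes took the 10 largest differences in each direction among called genes with a mean of at least 10 CPM and no overlap between groups. It gave 10 genes for the Jurkat-rich and 2 for the HEK-rich group. GIMAP4 (ENSG00000133574, chromosome 7, 150567369 to 150573953, GRCh38), a GTPase of the immunity-associated family, had 15.2, 8.04, 15.4 and 11.4 CPM in Mixtures 3 to 6 and 39.6, 33.7, 110 and 181 CPM in Mixtures 9 to 12. All Jurkat-rich libraries lay above all HEK-rich ones, and the libraries with 20% HEK cells lay far above those with 40%. Its log2 difference was 2.95 ± 0.53 (SE), with an adjusted p of 0.033 in edgeR. From 80% to 60% HEK its log2 difference was 0.09 and from 40% to 20% it was 1.96.

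PTPRC (ENSG00000081237, chromosome 1, 198638457 to 198757476), the tyrosine phosphatase CD45 of leukocytes, had 35.8, 45.0, 53.9 and 71.5 CPM in Mixtures 3 to 6 and 226, 148, 371 and 488 CPM in Mixtures 9 to 12. The Jurkat-rich libraries were all higher, with Mixture 10 the lowest of them. The log2 difference of PTPRC was 2.68 ± 0.38 (SE), with an adjusted p of 0.028 in edgeR. SPN (ENSG00000197471, chromosome 16, 29662979 to 29670876), the sialoprotein CD43, had 33.9, 41.4, 77.9 and 88.6 CPM in the HEK-rich libraries and 270, 130, 464 and 473 CPM in the Jurkat-rich ones. Again no library overlapped, and Mixture 10 was the lowest of its group. SPN differed by 2.59 ± 0.45 (SE) log2, with an adjusted p of 0.0323 in edgeR.

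ARHGAP30 (ENSG00000186517, chromosome 1, 161046946 to 161069970), a GTPase-activating protein, had 12.9, 10.8, 30.3 and 35.6 CPM in Mixtures 3 to 6 and 101, 91.3, 220 and 170 CPM in Mixtures 9 to 12. The groups stood clear of each other, and the mixing levels also kept their order. ARHGAP30 differed by 2.82 ± 0.44 (SE) log2, with an adjusted p of 0.0295 in edgeR. APBB1IP (ENSG00000077420, chromosome 10, 26438341 to 26567803), an effector of Rap1 in integrin activation, had 8.24, 7.91, 13.6 and 16.4 CPM against 45.4, 23.6, 111 and 107 CPM. TRAF3IP3 (ENSG00000009790, chromosome 1, 209756032 to 209782320), a partner of TRAF3, had 5.30, 6.30, 13.5 and 13.0 CPM against 28.2, 29.2, 70.2 and 107 CPM. RCSD1 (ENSG00000198771, chromosome 1, 167630093 to 167708696), which binds the actin capping protein, had 1.85, 2.39, 6.18 and 6.26 CPM against 10.3, 14.0, 36.3 and 38.3 CPM. In each of these genes every Jurkat-rich library exceeded every HEK-rich one, and log2 differences were 2.75, 2.73 and 2.69.

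XAF1 (ENSG00000132530, chromosome 17, 6755447 to 6775647), an interferon-induced partner of the apoptosis inhibitor XIAP, had 1.85, 5.25, 15.0 and 12.2 CPM in Mixtures 3 to 6 and 39.3, 25.9, 55.2 and 58.2 CPM in Mixtures 9 to 12. The groups did not overlap, and Mixture 3 was far below the other HEK-rich libraries. RGPD1 (ENSG00000187627, chromosome 2, 86913783 to 87013976) had 4.64, 4.00, 10.0 and 8.29 CPM against 20.8, 16.7, 63.0 and 46.2 CPM. RGPD1 belongs to a family of near-identical copies that RSEM had to divide reads between, so its value is uncertain. The log2 differences were 2.52 for XAF1 and 2.56 for RGPD1. The protocol makes strand-specific libraries, but whether reads were counted by strand is not given in the sources used here. APBB1IP, TRAF3IP3, RCSD1, PTPRC, SPN, XAF1 and RGPD1 overlap other annotated genes, on the same strand for APBB1IP and SPN, so their counts may hold reads of those. GIMAP4 and ARHGAP30 overlap none.

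The 10 genes kept their direction whichever library was left out, but not their calls. With all 8 libraries their adjusted p in edgeR was at most 0.0469. Without Mixture 3 it ran from 0.125 to 0.128, without Mixture 4 from 0.108 to 0.159, and without Mixture 5 from 0.0687 to 0.0829. Those fits called none of the 10. Without Mixture 11 it ran from 0.0936 to 0.135 and without Mixture 12 from 0.0933 to 0.149, again with no call. Without Mixture 6 it ran from 0.0416 to 0.0709 and 2 were called, without Mixture 9 from 0.0308 to 0.0579 and 9 were called, and without Mixture 10 from 0.0088 to 0.0324 and all 10 were called. Within the file name digit 1 the log2 differences ran from 1.98 for XAF1 to 3.08 for GIMAP4, with an adjusted p of 0.921 in edgeR for each.

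**Figure D3:**
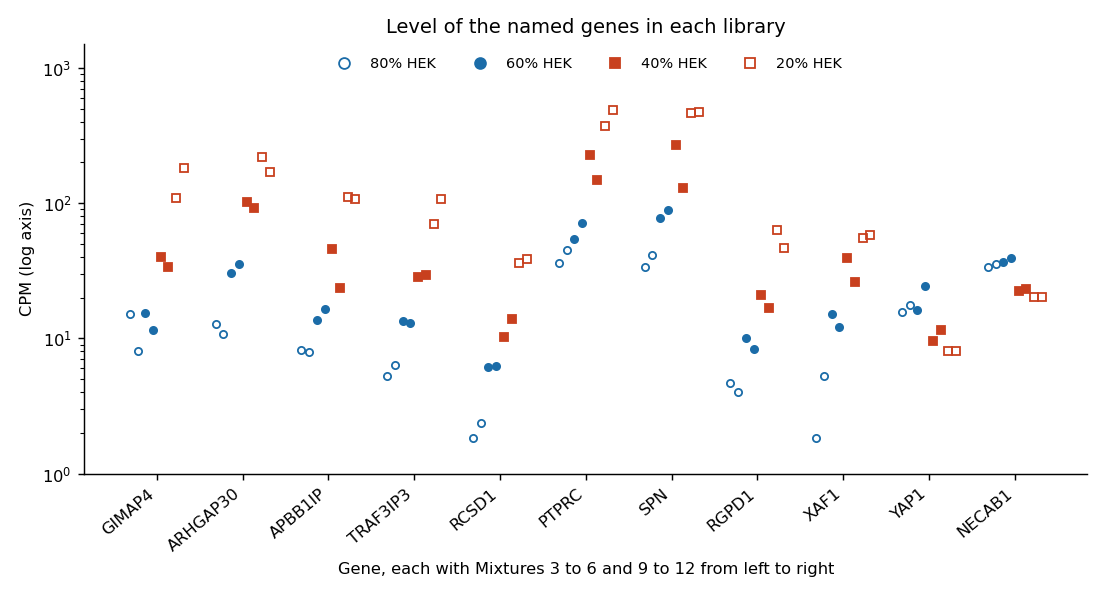
CPM (log axis) of the named genes in the 8 libraries, Mixtures 3 to 6 and 9 to 12 from left to right for each gene, with circles for HEK-rich and squares for Jurkat-rich libraries. For the first 9 genes every Jurkat-rich library lies above every HEK-rich one, and for YAP1 and NECAB1 every one lies below.

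Promoters of the named genes were read because RUNX and ETS factors are known regulators in T cells. The rule chose these genes by their difference between the groups, so nothing about shared regulation is read from their moving together. The sequences are from RefSeq on GRCh38.p14, 5' to 3' on the strand of the gene, from the table of promoters in which 8 of the 10 genes had an entry. The RUNX motif searched was TGTGGT, or ACCACA on the other strand, and the ETS motif was CAGGAAG, or CTTCCTG on the other strand. PTPRC at chr1:198638790-198639089 on the plus strand and ARHGAP30 at chr1:161069842-161070141 on the minus strand are shown, a surface phosphatase and a gene that overlaps no other. They are also the only 2 of the 8 genes with an ETS match, so they do not stand for the others. Capitals mark the motifs.
PTPRC: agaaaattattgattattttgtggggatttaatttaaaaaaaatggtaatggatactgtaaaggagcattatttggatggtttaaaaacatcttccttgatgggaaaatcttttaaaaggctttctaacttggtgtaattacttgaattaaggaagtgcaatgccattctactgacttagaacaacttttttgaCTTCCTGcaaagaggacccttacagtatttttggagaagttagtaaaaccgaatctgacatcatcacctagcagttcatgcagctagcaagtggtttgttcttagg
ARHGAP30: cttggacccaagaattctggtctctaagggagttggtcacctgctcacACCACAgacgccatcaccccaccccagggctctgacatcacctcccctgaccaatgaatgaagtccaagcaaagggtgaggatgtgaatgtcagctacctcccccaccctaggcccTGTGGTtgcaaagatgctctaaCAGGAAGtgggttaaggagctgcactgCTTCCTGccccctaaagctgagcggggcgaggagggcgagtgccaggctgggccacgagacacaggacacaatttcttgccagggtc

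PTPRC held 0 RUNX matches and 1 ETS match in this window, and ARHGAP30 held 2 of each. RUNX matches were found for 3 of the 8 genes, ARHGAP30, TRAF3IP3 and XAF1, and ETS matches for 2, ARHGAP30 and PTPRC. These 8 genes had 11 promoters, of which 5 held the RUNX motif and 2 the ETS motif. Of 35116 promoters of the same length, 13.1% held the RUNX motif and 12.7% held the ETS motif. A match describes the letters only and says nothing of binding.

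The genes higher in the HEK-rich group were led by YAP1 among those that the rule named. YAP1 (ENSG00000137693, chromosome 11, 102110447 to 102233424), the transcriptional coactivator of the Hippo pathway, had 15.7, 17.5, 16.2 and 24.4 CPM in Mixtures 3 to 6 and 9.50, 11.5, 8.12 and 8.12 CPM in Mixtures 9 to 12. All HEK-rich libraries were higher, with Mixture 6 above the other 3. YAP1 differed by -0.91 ± 0.19 (SE) log2, with an adjusted p of 0.0456 in edgeR. NECAB1 (ENSG00000123119, chromosome 8, 90791741 to 90959393), a calcium-binding protein of neurons, had 33.8, 35.7, 36.8 and 39.5 CPM in the HEK-rich libraries and 22.3, 23.0, 20.1 and 20.2 CPM in the Jurkat-rich ones. The groups were well apart and each was tight. Its log2 difference was -0.68 ± 0.14 (SE), with an adjusted p of 0.0409 in edgeR. YAP1 and NECAB1 overlap genes on the opposite strand, whose reads could be told apart only if counting used the strand. Both calls were lost in edgeR without Mixture 3, 4, 5, 6, 11 or 12, with adjusted p of up to 0.161 for YAP1 and 0.155 for NECAB1. NECAB1 was also not called without a filter on low counts (adjusted p = 0.0557 in edgeR).

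The other 4 of the 6 genes fell outside the rule and were chosen after their values were seen. EDA2R (ENSG00000131080), a receptor of ectodysplasin A2, had 5.47, 4.91, 4.64 and 5.26 CPM in Mixtures 3 to 6 and 2.63, 2.69, 1.43 and 1.92 CPM in Mixtures 9 to 12. EBF3 (ENSG00000108001), a transcription factor of the early B cell factor family, had 5.68, 5.86, 7.56 and 5.95 CPM against 3.19, 3.72, 3.47 and 3.05 CPM. In both genes the groups stood apart, and EDA2R was lower at 20% than at 40% HEK. FBLL1 (ENSG00000188573), a relative of fibrillarin, had 3.10, 3.88, 4.12 and 2.86 CPM against 1.54, 1.55, 1.17 and 1.56 CPM. RN7SL674P (ENSG00000239899), a 7SL pseudogene that shares sequence with many copies and is therefore uncertain, had 3.95, 6.77, 4.24 and 1.72 CPM against 1.11, 1.01, 0.569 and 0.392 CPM. In FBLL1 and RN7SL674P the groups also did not overlap, although Mixture 6 came closest to the Jurkat-rich libraries. Log2 differences were -1.15 for EDA2R, -0.81 for EBF3, -1.17 for FBLL1 and -2.34 for RN7SL674P. None of the 6 was called in edgeR without Mixture 3, 4, 5, 11 or 12.

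The size that a difference could reach for each line was estimated with the pure libraries, from lists of Jurkat alone. The summed CPM of the T cell and leukocyte lists lay at 2.96%, 3.48%, 9.35% and 9.46% of the way from pure HEK to pure Jurkat in Mixtures 3 to 6, and at 17.9%, 18.8%, 36.9% and 40.0% in Mixtures 9 to 12. The mixing levels followed each other without overlap. Mean positions were 6.31% and 28.4%. With these positions a gene of Jurkat alone could differ by 2.17 log2 (4.50-fold), and a gene of HEK alone by -0.39 log2 (1.31-fold). All 6 genes called higher in the HEK-rich group and 110 of the 301 called higher in the Jurkat-rich group went past these sizes. The sizes rest on these lists pooled, come from the same libraries and are no test. Single lists gave other mean positions, such as 4.75% and 24.2% for leukocyte surface genes and 9.25% and 35.7% for receptor chains. Lists named for HEK spread further. They gave 6.36% and 38.5% for YAP, TAZ and caveolae, 4.1% and 28.4% for matrix, and 4.30% and 19.3% for kidney factors. Epithelial junctions gave 17.4% and 25.0%, contractile genes 20.4% and 23.0%, and neuronal genes 0.56% and 9.52%. All HEK lists pooled gave -17.3% and 23.5%. The kidney sum was higher in pure Jurkat than in pure HEK, with means of 7064 against 1645 CPM, and SOX4 led it. The pooled sum was 9981 and 7573 CPM in pure Jurkat against 7706 and 7893 CPM in pure HEK, so the pure lines overlapped. Positions from the kidney and pooled sums therefore do not measure the share of HEK. The sizes are therefore rough, and the one for HEK was not taken from lists of HEK.

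Between the pure lines, 2 libraries each, edgeR called 2995 of 15785 genes higher in Jurkat (19%) and 3827 higher in HEK (24.2%). Genes more than 5 log2 higher in pure Jurkat numbered 381, had a median mixture difference of 2.07 log2, and 194 of them were called. Those 3 to 5 log2 higher numbered 292 with a median of 1.28, and 73 were called. Those 1 to 3 log2 higher numbered 2250 with a median of 0.39, and 27 were called. On the HEK side, 973 genes more than 5 log2 higher in pure HEK had a median of -0.35, and 2 of them were called higher in the HEK-rich group. The 642 genes from 3 to 5 log2 higher in HEK had a median of -0.33, with 1 called in each direction. The 2246 genes from 1 to 3 log2 higher in HEK had a median of -0.21, and 3 were called higher in the HEK-rich group. The 8657 within 1 log2 had a median of 0.02, and 5 were called higher in the Jurkat-rich group. The 292 genes called in both contrasts as higher on the Jurkat side were 97.0% of the mixture list and 9.75% of the pure list. The pseudogene MTCO1P40, chosen after its values were seen, was called in opposite directions, with a log2 difference of 1.48 in the mixtures and -3.23 between the pure lines. The 5 genes called on the HEK side in both were 83.3% of the mixture list and 0.131% of the pure list. Both pure HEK libraries carry the file name digit 2 and both pure Jurkat libraries carry 1, so line and digit cannot be told apart there.

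**Figure D4:**
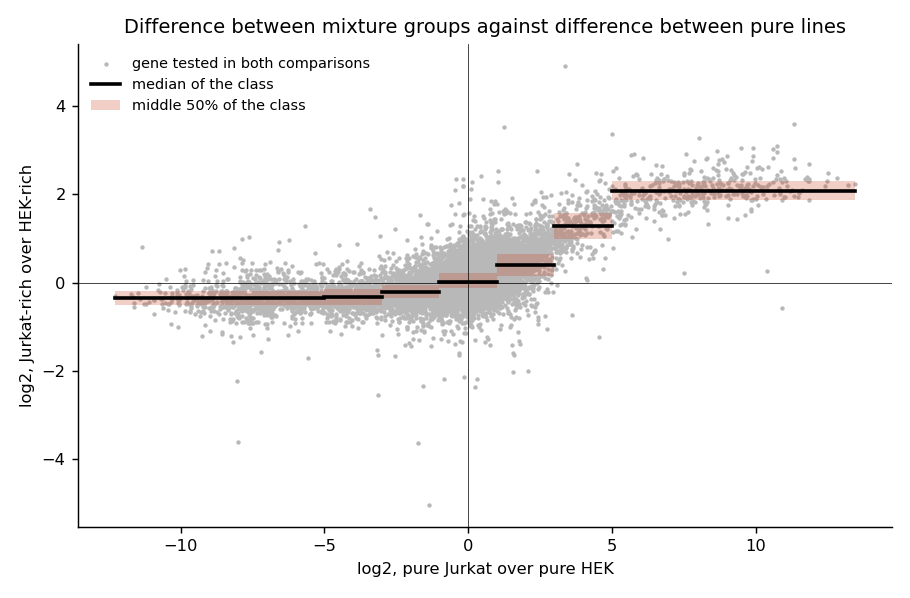
Log2 difference of Jurkat-rich over HEK-rich mixtures against log2 difference of pure Jurkat over pure HEK, one point per gene, with black bars at the median of each class and shading over its interquartile range. Genes more than 5 log2 higher in pure Jurkat have a median of 2.07 on the vertical axis, and genes more than 5 log2 higher in pure HEK have a median of -0.35.

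The steps inside each group use libraries that the main contrast also uses. From 80% to 60% HEK, edgeR called 43 genes higher at 60% (0.257%) and 19 higher at 80% (0.114%). From 40% to 20% HEK it called 20 higher at 20% (0.12%) and 2 higher at 40% (0.012%). The 301 genes had a median of 0.70 log2 in the first step and 0.82 in the second, beside 0.03 and -0.03 over all genes. The 6 genes called higher in the HEK-rich group had medians of -0.03 and -0.28, and in the first step YAP1 stood at 0.20, NECAB1 at 0.04 and EBF3 at 0.13. Of the 301, 13 were called in the first step and 6 in the second. Over both directions the steps gave 62 and 22 calls with all libraries. The first step gave 0 without Mixture 3, 11 or 12, 1 without Mixture 4, 3 without Mixture 5 or 6, 508 without Mixture 9 and 460 without Mixture 10. The second gave 0 without Mixture 3, 4 or 11, 5 without Mixture 5, 2 without Mixture 6, 141 without Mixture 9, 516 without Mixture 10 and 14 without Mixture 12. At least 1205 genes had an unadjusted p under 0.05 in each of these edgeR fits, in which a lone library of a level is assumed to vary like the others.

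The chains of the T cell receptor and CD3 were among the clearest groups of Jurkat. Their 7 genes summed to 60.5, 66.5, 193 and 186 CPM in Mixtures 3 to 6 and to 284, 379, 590 and 670 CPM in Mixtures 9 to 12, a ratio of means of 3.80. Sums did not overlap and grew at each mixing level toward Jurkat. Of the 7 genes, 4 were called higher in the Jurkat-rich group, the CD3 chains CD247, CD3E and CD3G and the receptor constant gene TRBC2, and 0 in the HEK-rich group. The median log2 difference of the 7 was 2.03. CD3G had 18.0, 16.9, 40.7 and 36.9 CPM in the HEK-rich libraries and 86.7, 111, 105 and 182 CPM in the Jurkat-rich ones, with no overlap, and differed by 2.21 ± 0.33 (SE) log2, with an adjusted p of 0.028 in edgeR. TRBC1, the most abundant of the 7 with 32.6% of their sum, had 19.5, 20.7, 70.4 and 66.8 CPM against 86.4, 118, 206 and 204 CPM, with an adjusted p of 0.0745. CD3D and TRAC likewise missed the threshold at 0.0712 and 0.0806 in edgeR, while all 7 genes had an unadjusted p under 0.05 and DESeq2 called all 7.

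Of 20 genes that carry the receptor's signal, 11 were called higher in the Jurkat-rich group and 0 in the HEK-rich group, with a median log2 difference of 2.04. The summed CPM were 225, 231, 308 and 285 in Mixtures 3 to 6 and 367, 440, 558 and 562 in Mixtures 9 to 12, a ratio of 1.84. Per spike-in count the log2 ratio was -0.17, on a scale where the sum of the reference genes stood at -0.92. The kinase FYN made up 37.5% of this sum and was level between groups, with 150, 146, 145 and 129 CPM against 115, 184, 117 and 130 CPM. LCK, the kinase that acts first at the receptor, had 6.07, 9.95, 22.9 and 25.0 CPM in the HEK-rich libraries and 35.6, 49.9, 78.3 and 81.3 CPM in the Jurkat-rich ones. Its groups were apart, and its log2 difference was 2.05 ± 0.43 (SE), with an adjusted p of 0.0459 in edgeR. SH2D1A, the adaptor SAP of the SLAM receptors, had 3.76, 4.77, 10.7 and 8.46 CPM against 53.5, 18.1, 47.8 and 23.6 CPM. Its Jurkat-rich libraries did not follow the mixing, since Mixture 9 with 40% HEK was highest. Its log2 difference was 2.52 ± 0.45 (SE), with an adjusted p of 0.0323 in edgeR. LAT, LCP2, GRAP2, RHOH, SKAP1, TESPA1, THEMIS and TRAT1 were also called, while ZAP70 had an adjusted p of 0.0919.

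Transcription factors of the T lineage and of T cell leukemia summed to 264, 261, 467 and 470 CPM in the HEK-rich libraries and to 770, 797, 1339 and 1490 CPM in the Jurkat-rich ones, a ratio of 3.01. The groups did not overlap. Of 18 genes, 9 were called higher in the Jurkat-rich group and 0 in the HEK-rich group, with a median of 1.76 log2. TCF7, a partner of beta-catenin in T cell development, had 38.8, 40.0, 95.2 and 70.6 CPM against 165, 208, 267 and 246 CPM, and differed by 1.96 ± 0.29 (SE) log2. BCL11B, which sets T cell commitment, had 29.0, 27.1, 50.1 and 50.6 CPM against 86.9, 107, 116 and 161 CPM, and differed by 1.68 ± 0.26 (SE) log2. In both genes the groups were apart, and adjusted p in edgeR was 0.028 for TCF7 and 0.0293 for BCL11B. TAL1, a factor switched on in many T cell leukemias, had 3.31, 2.92, 7.10 and 6.63 CPM against 9.50, 12.9, 27.2 and 21.4 CPM, and differed by 1.94 ± 0.38 (SE) log2. LEF1, the most abundant with 22.6% of the sum, had 45.7, 38.2, 91.0 and 121 CPM against 124, 113, 370 and 422 CPM. Mixture 6 exceeded Mixture 10 in LEF1, whose adjusted p was 0.104 in edgeR. ETS1, IKZF1, MYB, NFATC2, RUNX1 and SATB1 were also called. LMO2 stayed between 0.531 and 1.49 CPM in all 8 libraries.

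Leukocyte surface genes summed to 144, 177, 300 and 324 CPM in Mixtures 3 to 6 and to 778, 591, 1490 and 1603 CPM in Mixtures 9 to 12. No library overlapped, and the ratio of means was 4.72 in CPM. Of 30 genes, 26 were tested, 15 were called higher in the Jurkat-rich group and 0 in the HEK-rich group, and the median was 2.12 log2. SPN held 29.2% of the sum. CD1E, an antigen-presenting protein of cortical thymocytes, had 7.47, 7.79, 23.8 and 19.8 CPM against 31.1, 40.5, 83.2 and 78.8 CPM. CD84, a SLAM receptor, had 6.93, 5.59, 14.1 and 18.2 CPM against 27.7, 37.3, 59.0 and 65.9 CPM. CD5, a brake on receptor signaling, had 0.989, 0.954, 2.23 and 2.63 CPM against 3.17, 4.65, 10.7 and 9.88 CPM. All were higher in every Jurkat-rich library, with log2 differences of 2.10, 2.19 and 2.18. CD4 had at most 0.995 CPM in any of the 8 libraries and was not tested, and CD8A had from 0.791 to 1.21 CPM with a log2 difference of 0.26 and no call. CD2, with 8.90, 19.4, 8.85 and 10.4 CPM against 19.3, 18.5, 71.3 and 56.0 CPM, overlapped between groups through Mixture 4 and was not called (adjusted p = 0.0859 in edgeR).

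Genes of the hematopoietic cytoskeleton and its signaling summed to 243, 266, 482 and 499 CPM against 646, 751, 1283 and 1335 CPM, a ratio of 2.69. Of 20 genes, 19 were tested, 6 were called higher in the Jurkat-rich group and 0 in the HEK-rich group, and the median was 2.01 log2. ARHGDIB, a GDP dissociation inhibitor of blood cells, had 14.6, 20.5, 53.2 and 54.4 CPM against 130, 104, 226 and 261 CPM. Its Jurkat-rich libraries all lay above, and the log2 difference was 2.46 ± 0.46 (SE), with an adjusted p of 0.036 in edgeR. LCP1, the actin bundling protein L-plastin, had 15.8, 16.9, 49.9 and 58.2 CPM against 75.5, 104, 202 and 200 CPM and missed the threshold at an adjusted p of 0.0575. CD99 held 19.7% of the sum. Its values of 92.0, 92.2, 134 and 152 CPM and of 115, 149, 181 and 171 CPM overlapped. ARHGAP15, DOCK2, EVL, NCKAP1L and PTPN7 were the others called.

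Genes of MHC class I and antigen processing, which HEK cells also express, differed by less than the other Jurkat lists. They summed to 379, 430, 581 and 558 CPM in Mixtures 3 to 6 and to 487, 647, 720 and 759 CPM in Mixtures 9 to 12, a ratio of 1.34, with overlap through Mixture 9. Of 15 genes, 1 was called higher in the Jurkat-rich group, IRF1, and 0 in the HEK-rich group, while 8 had an unadjusted p under 0.05 and 14 a log2 difference above 0. The term for each mixing level called 6. The median was 0.41 log2 and was -0.75 with spike-in scaling, which is 0.36 above the median of all genes there. IRF1, a transcription factor of the interferon response, had 9.96, 8.26, 10.9 and 15.7 CPM against 31.0, 16.7, 34.9 and 41.9 CPM, without overlap. Its log2 difference was 1.58 ± 0.31 (SE), with an adjusted p of 0.0384 in edgeR. B2M, with 29.0% of the sum, had 84.9, 111, 167 and 153 CPM against 119, 212, 231 and 243 CPM. B2M overlapped between groups and was not called.

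Calls in these Jurkat lists moved with the libraries as the full count did. Without Mixture 3, 4, 5, 11 or 12, edgeR called 0 genes of any of the 18 lists in either direction. Without Mixture 6 it called 1 receptor chain, 3 signaling genes, 4 transcription factors, 4 surface genes, 1 cytoskeletal gene and 0 MHC genes. Without Mixture 9 it called 4, 14, 10, 18, 17 and 2 of them, and without Mixture 10 it called 4, 14, 13, 16, 13 and 5. DESeq2 with all libraries called 7, 16, 14, 24, 17 and 6. With library totals edgeR called 2, 7, 8, 10, 5 and 1, and with the size factors of DESeq2 it called 3, 8, 9, 12, 5 and 1. Over the union of the first 5 of these lists, without the MHC genes, 45 of 90 genes tested were called, the median was 2.01 log2, and 82 had an unadjusted p under 0.05. Within the file name digit 1 edgeR called 0 of them and their medians, in the same order, were 1.39, 1.54, 1.25, 1.54, 1.41 and 0.23 log2. With spike-in scaling the first 5 medians were 1.01, 0.94, 0.71, 1.04 and 0.85 with 0 calls.

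**Figure D5:**
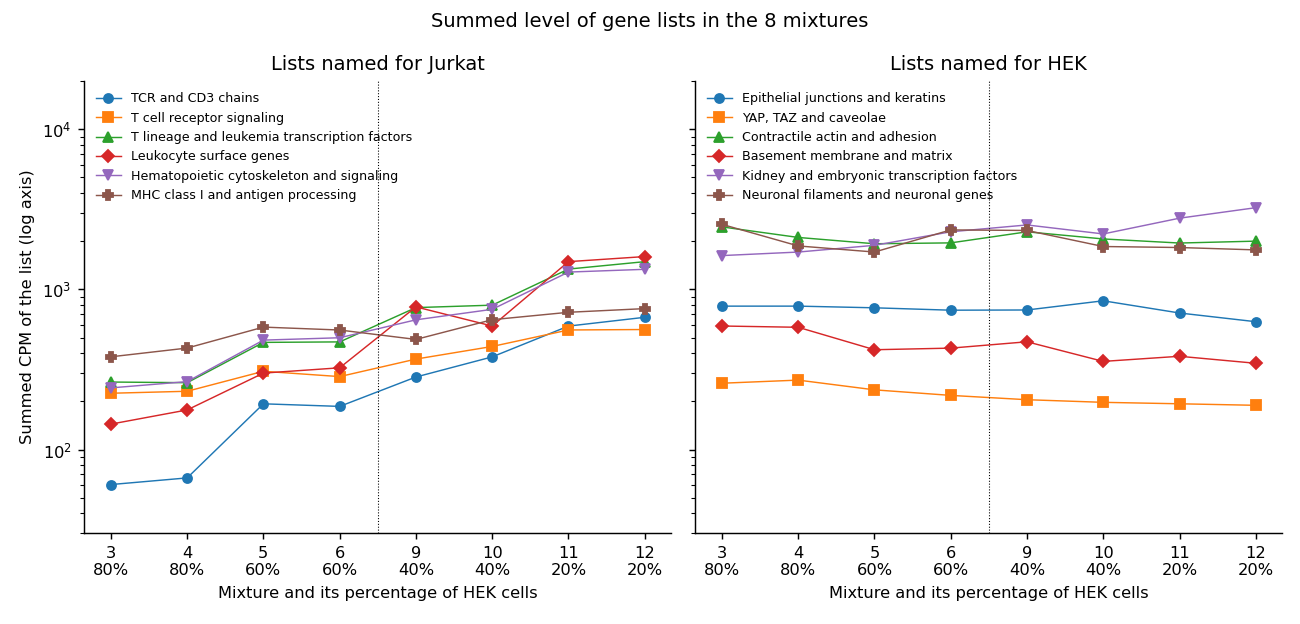
Summed CPM (log axis) of gene lists in the 8 libraries, one point per library, with lists named for Jurkat on the left and for HEK on the right, and lines that only guide the eye. The T cell receptor and CD3 chains sit between 60.5 and 193 CPM in the HEK-rich and between 284 and 670 CPM in the Jurkat-rich libraries, while all lists of HEK but YAP, TAZ and caveolae overlap between groups.

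The lists of HEK-293T showed far smaller differences. Over their union of 111 genes tested, 1 was called higher in the HEK-rich group and 2 in the Jurkat-rich group, the median was -0.15 log2, and 28 had an unadjusted p under 0.05. Genes of epithelial junctions and keratins summed to 786, 786, 767 and 742 CPM in Mixtures 3 to 6 and to 744, 849, 712 and 628 CPM in Mixtures 9 to 12. The groups overlapped. Of 22 genes 20 were tested and edgeR called 0 in either direction (4 at an unadjusted p under 0.05, and 0 in DESeq2), with a median of -0.06 log2. Without Mixture 10 it called 1 higher in the HEK-rich group. DSP, the desmosomal plaque protein with 25.4% of the sum, had 205, 247, 136 and 125 CPM against 257, 200, 221 and 134 CPM. KRT8, a keratin of simple epithelia, had 14.0, 14.5, 19.2 and 14.4 CPM against 11.2, 13.2, 9.72 and 11.9 CPM. KRT8 did not overlap between groups but was not called, with an adjusted p of 0.344 in edgeR.

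YAP, TAZ and caveolae genes, which answer to attachment and spreading, summed to 259, 271, 236 and 218 CPM against 205, 197, 193 and 189 CPM. Every HEK-rich sum exceeded every Jurkat-rich one, with a ratio of means of 0.796. Its log2 ratio was -0.33, but -0.017 with TPM, -0.15 within the file name digit 1 and -0.20 without TEAD1. Of 18 genes 16 were tested, with 1 call higher in the HEK-rich group, YAP1, 0 in the Jurkat-rich group, and a median of -0.33 log2. In edgeR without Mixture 9 the list gave 1 call in each direction, without Mixture 10 it gave 1 in the HEK-rich group, and without Mixture 6 it gave 0. TEAD1, the DNA-binding partner of YAP with 24.1% of the sum, had 78.1, 85.7, 52.8 and 49.2 CPM against 61.9, 31.3, 24.8 and 41.9 CPM. CAV1, the coat protein of caveolae, had 16.6, 15.0, 16.5 and 17.8 CPM against 15.6, 14.8, 8.86 and 10.0 CPM. Mixture 9 overlapped the HEK-rich libraries in both TEAD1 and CAV1, and neither was called (adjusted p of 0.422 and 0.521 in edgeR).

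Basement membrane and matrix genes summed to 591, 580, 420 and 430 CPM against 471, 355, 382 and 346 CPM, a ratio of 0.769, with overlap through Mixture 9. Of 23 genes 21 were tested and edgeR called 0 in either direction (7 at an unadjusted p under 0.05, and 0 in DESeq2), with a median of -0.39 log2. Without Mixture 9 or Mixture 10 it called 1 higher in the HEK-rich group. FBN2, a fibrillin of microfibrils, had 42.3, 46.8, 27.0 and 37.7 CPM against 31.2, 17.5, 12.9 and 19.3 CPM. LAMB1, a laminin chain, had 142, 85.0, 43.7 and 36.4 CPM against 44.3, 36.8, 38.1 and 31.5 CPM. In both genes the high values belonged to HEK-rich libraries and the groups overlapped slightly. LAMC1, the most abundant with 13.5% of the sum, had 86.0, 75.6, 36.1 and 36.3 CPM against 83.5, 30.1, 90.5 and 44.9 CPM, with no order by group. Contractile actin and adhesion genes summed to 2456, 2111, 1928 and 1952 CPM against 2288, 2065, 1948 and 2001 CPM, and overlapped. Of 20 contractile genes 19 were tested and edgeR called 0 in either direction (3 at an unadjusted p under 0.05, and DESeq2 called 1 higher in the HEK-rich group), with a median of 0.17 log2 that was -0.95 with spike-in scaling, 0.16 above the median of all genes there. MYH10, a nonmuscle myosin with 28.9% of that sum, had 826, 605, 443 and 447 CPM against 655, 540, 632 and 689 CPM.

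Kidney and embryonic transcription factors summed to 1626, 1711, 1885 and 2289 CPM in Mixtures 3 to 6 and to 2526, 2220, 2784 and 3237 CPM in Mixtures 9 to 12. The sum was 1.43 times as high in the Jurkat-rich group, against the line the list was made for, and SOX4 made up 80.2% of it. Per spike-in count its log2 ratio was -0.52, on a scale where the sum of the reference genes stood at -0.92. SOX4 had 1112, 1218, 1408 and 1819 CPM against 2000, 1751, 2466 and 2885 CPM, with Mixture 6 above Mixture 10 and an adjusted p of 0.105 in edgeR. Pure Jurkat held more SOX4 than pure HEK, with 8078 and 5697 CPM against 1300 and 992 CPM. Without SOX4 the sum of the list had a log2 ratio of -0.23. Of 23 genes 20 were tested, 1 was called higher in the Jurkat-rich group, SOX11, 0 in the HEK-rich group, and the median was -0.25 log2. SOX11, a relative of SOX4 in embryonic neurons, had 3.76, 2.11, 4.69 and 4.33 CPM against 13.8, 7.44, 20.4 and 28.1 CPM, without overlap. It differed by 2.33 ± 0.41 (SE) log2, with an adjusted p of 0.0323 in edgeR. In edgeR the list gave 0 calls without Mixture 6, 1 without Mixture 9 and 2 without Mixture 10.

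Neuronal filaments and neuronal genes, known from HEK cells, summed to 2548, 1868, 1711 and 2352 CPM against 2334, 1852, 1826 and 1765 CPM, and overlapped. Of 22 genes 15 were tested, with 1 call higher in the Jurkat-rich group, DPYSL2, 0 in the HEK-rich group, and a median of -0.09 log2. NEFM, a neurofilament with 58.7% of the sum, had 1597, 1087, 832 and 1411 CPM against 1451, 1052, 1057 and 1047 CPM. MAP1B, which binds microtubules, had 458, 295, 344 and 381 CPM against 438, 291, 285 and 286 CPM. Neither NEFM nor MAP1B was ordered by group. DPYSL2, which binds tubulin, had 19.9, 16.9, 22.4 and 25.4 CPM against 32.7, 31.6, 37.6 and 38.6 CPM, without overlap, and differed by 0.83 ± 0.17 (SE) log2, with an adjusted p of 0.043 in edgeR. The list gave 0 calls in edgeR without Mixture 6 and 1 without Mixture 9 or Mixture 10.

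Lists made for neither line served as background, although those of the cell cycle, of ribosomal proteins and of mitochondrially encoded proteins differed between the pure lines. Mean sums in pure HEK and pure Jurkat were 4599 and 4591 CPM for reference genes and 4930 and 7813 CPM for cell cycle genes. For cytosolic ribosomal proteins they were 121380 and 78628 CPM, and for mitochondrially encoded proteins 46817 and 29482 CPM. The 15 reference genes summed to 3981, 4555, 5443 and 5678 CPM against 4232, 5786, 5695 and 5837 CPM, with 0 calls in edgeR (3 at an unadjusted p under 0.05, and 1 in DESeq2) and a median of -0.01 log2. GAPDH, the glycolytic enzyme with 22.1% of that sum, had 761, 991, 1247 and 1429 CPM against 795, 1506, 1127 and 1230 CPM, with full overlap. The 24 cell cycle genes summed to 5976, 5025, 4768 and 4510 CPM against 5541, 4774, 6148 and 5362 CPM, with 0 calls in edgeR (4 unadjusted, and 1 in DESeq2) and a median of 0.03 log2, which was -0.07 with library totals and, with spike-in totals, -1.08, or 0.04 above the median of all genes there. TOP2A, which unlinks DNA in mitosis, held 21.1% of that sum with 1330, 1052, 1169 and 1130 CPM against 945, 1127, 1059 and 1084 CPM. Both lists overlapped between groups, and edgeR called 1 cell cycle gene without Mixture 10. Cytosolic ribosomal proteins, 83 of 84 tested, had a ratio of mean sums of 0.919. RPL5 led with 4.10% of that sum, the median was -0.11 log2, and edgeR called 0 (1 unadjusted, and 0 in DESeq2).

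Markers of other cell types had low sums. Of 16 markers of B cells, myeloid and erythroid cells, 7 had at most 3 counts in every library of the 8, and 2 were tested, with 0 calls in edgeR (1 at an unadjusted p under 0.05, and 1 in DESeq2). Their sum was 4.29, 4.29, 4.72 and 5.64 CPM in Mixtures 3 to 6 and 5.87, 4.34, 6.00 and 8.11 CPM in Mixtures 9 to 12. CD79A, a chain of the B cell receptor, had 0.132, 0.682, 0.859 and 1.16 CPM against 1.31, 1.96, 3.29 and 4.05 CPM, without overlap, and its adjusted p was 0.088 in edgeR. MPO, ELANE and HBB were at 0 in Mixtures 3 to 6 and 9 to 12. Of 13 fibroblast and endothelial markers, 5 had at most 3 counts in every library of the 8, 2 were tested and 0 were called in edgeR (0 unadjusted, and 0 in DESeq2). They summed to between 10.4 and 12.4 CPM in the HEK-rich and between 9.93 and 14.9 CPM in the Jurkat-rich libraries. COL1A1 made up 74.9% of that sum, and the endothelial receptor TEK was at 0 in every library of the 8 but Mixture 3.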

How the data were processed

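The authors aligned single-end reads of each library with STAR 2.6.1b to GRCh38 plus ERCC sequences and deposited expected counts from RSEM 1.3.1, not normalized. They also deposited TPM, scaled over genes and spike-ins together, which served only as an alternative for list sums. The annotation release is not stated. Symbols and coordinates came from GENCODE 44 by identifier. Of 58440 genes, 45 pseudoautosomal copies were added to the X copy, and 57754 of the 58395 left matched a symbol. The others held at most 0.29% of any library's counts. Spike-ins were left out of CPM. The libraries of each mixing level differed beyond counting noise (chi-square per degree of freedom 29.0 at 80%, 18.4 at 60%, 129 at 50%, 55.3 at 40% and 27.3 at 20% HEK), so each was kept apart.

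Expected counts were rounded and tested 4 against 4 with edgeR 4.0.16 (filterByExpr, TMM, two-sided quasi-likelihood test) and Benjamini-Hochberg adjustment at 0.05. Steps inside a group came from a fit with a term for each of 4 mixing levels. Alternatives were DESeq2 1.42.0, its size factors, library totals, spike-in totals, no filter, a term for the file name digit, the digit 1 alone, a line on the Jurkat percentage over the 10 mixed libraries, other thresholds, each library left out, and a newer form of edgeR's fit, chosen after seeing the data. Named genes were the 10 largest differences in each direction among called genes with a mean of at least 10 CPM, no overlap between groups and a symbol that is no clone name, and the most abundant or called members of 18 gene lists. Genes of chromosome Y were left out, and 1 of the 10 genes named for the Jurkat-rich group is not reported here. The members and lists were chosen with earlier results of these data known. The steps were tested on simulated data, with 50 genes above a minimum count changed at each fold. For the main contrast edgeR recovered 28% of 2-fold, 96% of 4-fold and 100% of 8-fold and 16-fold changes. Of its 169 calls there, 7 were unchanged genes. For the step from 80% to 60% HEK it recovered 10% of 2-fold changes. No smaller fold was simulated, so small differences may be missed. R 4.3.3, limma 3.58.1, Python 3.11.15, numpy 2.4.6, pandas 2.3.3, scipy 1.17.1 and matplotlib 3.10.9 were used.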

Additional observations from a re-analysis of the deposited data

Results flagged for a closer look

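In the Jurkat-rich group, Mixture 9 lay far from the other 3 libraries in the summed CPM of neuronal filaments and neuronal genes, at 2333.6 CPM against 1852, 1826 and 1765 CPM. In the summed CPM of the reference genes, Mixture 9 was again apart, at 4232.2 CPM against 5786, 5695 and 5837 CPM. Of 64 groups of 4 libraries examined by Dixon's test, 2 held such a library, and chance gives about 1 in 20.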

How the results depend on the processing

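None of the 12 genes named by the rule on called genes changed direction under the alternatives run, while sums of several lists changed sign, and with spike-in totals more genes were called on the HEK-rich side than on the Jurkat-rich side. No paired analysis was possible because the groups share no replicate numbers. The numbers of genes higher in the Jurkat-rich and HEK-rich groups, 301 and 6, were 526 and 17 without a filter, 775 and 85 with DESeq2, 735 and 48 with a term for each mixing level, 876 and 91 with a line on the Jurkat percentage, 2 and 54 with spike-in totals, 2 and 0 at an adjusted p of 0.01, and 0 and 0 in edgeR with the digit as a term (653 and 303 unadjusted) or within the digit 1 (645 and 225). At a difference of 2-fold or more they were 277 and 3, and with each library left out they ran from 1 to 576 and from 0 to 42. With the size factors of DESeq2 they were 270 and 6, with library totals 225 and 8, and with the newer fit, chosen after seeing the data, 336 and 7. Steps gave 62 genes from 80% to 60% HEK, 1462 without a filter and from 0 to 508 with a library left out. From 40% to 20% they gave 22, with 48 by the size factors of DESeq2, 1512 without a filter and from 0 to 516 with a library left out. The digit called 1 gene with the pair at 50% HEK. Of the called genes, 297 were called in the same direction between the pure lines, and from 287 to 299 with a pure library left out, where the lone library is assumed to vary like the others. The log2 ratio of gene counts to spike-in counts ran from 0.54 to 1.22 with a library left out. For those 12 genes, 106 values under the alternatives kept call and direction and 110 kept only the direction. XAF1 lost its call in edgeR with the size factors of DESeq2 (adjusted p = 0.0506) and with library totals (adjusted p = 0.0519). List sums moved by less than the spread of libraries in 188 cases. With counts per spike-in count, log2 ratios of the sums were 1.01 for receptor chains, -0.17 for receptor signaling, 0.58 for T lineage factors, 1.18 for surface genes, 0.40 for the hematopoietic cytoskeleton, -0.62 for MHC class I, -1.10 for epithelial junctions, -1.40 for YAP and caveolae, -1.04 for contractile genes, -1.45 for matrix, -0.52 for kidney factors, -1.09 for neuronal genes, -0.92 for reference genes, -0.95 for the cell cycle, -0.68 for B cell, myeloid and erythroid markers, -0.98 for fibroblast and endothelial markers, -1.15 for ribosomal proteins and -0.96 for mitochondrial genes. Without the most abundant gene they were 1.53 for receptor signaling, -0.20 for YAP and caveolae, -0.23 for kidney factors, 0.82 for B cell, myeloid and erythroid markers and -0.26 for fibroblast and endothelial markers. With TPM they were -0.017 for YAP and caveolae and 0.29 for kidney factors. Within the digit 1 they were -0.15 for YAP and caveolae, 0.23 for kidney factors and 0.27 for the cell cycle. The cause of these changes was not tested, except that fewer libraries enter where some are left out.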

Other observations

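The genes of this paragraph and the next were chosen after their values were seen. IFI16, GBP1 and SP100, each known to be induced by interferon, were called higher in the Jurkat-rich group by edgeR. IFI16, a sensor of DNA, had 30.6, 25.4, 37.3 and 36.9 CPM in Mixtures 3 to 6 and 187, 76.9, 179 and 144 CPM in Mixtures 9 to 12. GBP1, a guanylate-binding protein, had 3.77, 4.27, 8.21 and 10.4 CPM against 23.0, 19.8, 44.7 and 50.8 CPM. SP100, a protein of nuclear bodies, had 7.04, 6.02, 14.4 and 14.6 CPM against 32.8, 25.6, 60.7 and 70.3 CPM. In these genes no library overlapped, and log2 differences were 2.29 for IFI16, 2.48 for GBP1 and 2.29 for SP100. The called genes TMSB4X and CDK6 were abundant. TMSB4X, which binds actin monomers, had 161, 178, 415 and 395 CPM against 570, 965, 1186 and 1207 CPM. CDK6, a kinase of the G1 phase, had 287, 220, 367 and 464 CPM against 626, 659, 938 and 1517 CPM. Both were higher in every Jurkat-rich library, with log2 differences of 1.87 and 1.58. The long noncoding RNA ENSG00000176320 (chromosome 1, 158197922 to 158203877) had 7.19, 7.02, 9.73 and 8.12 CPM against 44.7, 33.8, 52.2 and 43.4 CPM, and the protease FAM111B (ENSG00000189057, chromosome 11, 59107185 to 59127412) had 3.30, 3.00, 3.35 and 3.01 CPM against 10.4, 10.2, 14.9 and 14.7 CPM. Both were tight within each group and far apart between groups, with log2 differences of 2.55 and 2.08 and adjusted p of 0.00292 and 0.00945 in edgeR. Without Mixture 3, 4, 5 or 12 the only gene called by edgeR was ENSG00000176320, and without Mixture 11 it was joined by FAM111B.

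The 13 protein genes of the mitochondrial genome summed to 39353, 46894, 49005 and 43006 CPM in Mixtures 3 to 6 and to 48881, 52475, 39132 and 43641 CPM in Mixtures 9 to 12, with MT-ATP6 at 16.6% of the sum and a median log2 difference of 0.04, which was -0.05 with library totals and, with spike-in totals, -1.09, or 0.02 above the median of all genes there. MT-CO1, a subunit of cytochrome oxidase, was the 1 gene of the 13 that edgeR called, and DESeq2 also called 1. It had 3305, 2960, 3793 and 3558 CPM in the HEK-rich libraries and 7498, 7737, 7599 and 6619 CPM in the Jurkat-rich ones. The groups were tight and apart, and log2 differed by 1.21 ± 0.15 (SE), with an adjusted p of 0.0254 in edgeR. Steps of MT-CO1 inside the groups were small, 0.13 from 80% to 60% HEK and -0.11 from 40% to 20%. Its nuclear copy MTCO1P40, which shares sequence with it and is uncertain, had 16.2, 12.7, 15.6 and 16.2 CPM against 43.4, 49.8, 36.2 and 30.5 CPM. Between the pure lines MTCO1P40 was called in the opposite direction, with 6.08 and 12.5 CPM in HEK and 0.750 and 0.928 CPM in Jurkat, a log2 difference of -3.23 and an adjusted p of 0.0099 in edgeR. In the pure libraries MT-CO1 had 2774 and 3061 CPM in HEK and 2242 and 10456 CPM in Jurkat, where the pair of Jurkat libraries lay far apart, and it was not called there. MT-CO1 held no call without Mixture 3, 4, 5, 11 or 12, and within the file name digit 1 its log2 difference was 1.14. RILPL2, STN1 and APOLD1 were also called in the mixtures but not between the pure lines. RILPL2 had 13.0, 14.3, 16.4 and 15.7 CPM against 22.6, 36.9, 31.0 and 33.5 CPM, and in pure HEK its pair of libraries had 47.4 and 16.1 CPM. Why these genes differed was not tested.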
